A study of Mus musculus with 59 samples.

Results

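The 10 genes described here encode subunits of Polycomb repressive complex 2 (PRC2), and they were followed in single mouse epiblasts that lacked either G9a or EZH2. They were taken by gene symbol from 22119 genes with a listed transcript: Ezh2, Ezh1, Eed, Suz12, Rbbp4, Rbbp7, Jarid2, Aebp2, Mtf2 and Phf19. Each gene was read from its transcript with the highest mean count over the 14 epiblasts, and its count was set to 0 in a sample that did not list it.

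PRC2 methylates lysine 27 of histone H3, and the trimethylated form (H3K27me3) marks silenced developmental genes. EZH2 or its paralogue EZH1 is the catalytic subunit, and it is active only in a complex with EED and SUZ12, to which the histone chaperones RBBP4 and RBBP7 bind. MTF2 and PHF19 belong to one form of the complex, and JARID2 and AEBP2 to another, and these accessory subunits help to bring the enzyme to its targets. In the early embryo loss of EZH2, EED or SUZ12 is lethal around gastrulation.

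RNA-seq was carried out on single epiblasts at E6.25, from embryos of a mixed background. In the first cross, 4 Ehmt2-/- epiblasts (G9a-/- in the labels) were compared with 4 controls, and in the second, 3 Ezh2-/- epiblasts (Ezh-/- in the labels) with 3 controls. Controls are labelled G9a+/+ and Ezh+/+, whereas the methods describe heterozygous intercrosses with +/+ or +/− controls, so heterozygous controls cannot be told apart from wild types here. The mutations were constitutive, thus every cell of a knockout embryo carried them, and the Ehmt2 stock also carried the ΔPE-Pou5f1-EGFP reporter. The amplification, from 750 pg of RNA, did not keep the strand.

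Counts summed over all transcripts were 30161171 to 45007990 per epiblast in 12 libraries, and 62589918 and 68464895 in control 4 and knockout 4 of the Ehmt2 cross. These replicate 4 libraries stood apart: the chi-square per degree of freedom between epiblasts of the same genotype was 146 to 192 where one of them was replicate 4 and 16.7 to 31.0 otherwise in that cross. Epiblast markers were present in every group. Their sum over 6 genes was 683 to 1019 CPM in Ehmt2 controls and 434, 562, 581 and 779 CPM in Ehmt2-/- epiblasts 1 to 4, the first 3 of them below every control, and 573 to 665 CPM in the Ezh2 cross, where CPM is the count relative to the scaled library total. The sum over 8 extraembryonic ectoderm markers was 25.3 to 132 CPM in Ehmt2 controls and 62.4 to 528 CPM in Ehmt2-/- epiblasts, with the highest value in knockout 1. One of these markers, Rhox5, had 3.78, 5.13, 1.58 and 0.075 CPM in Ehmt2 controls 1 to 4. It had 206, 61.1, 71.5 and 40.3 CPM in Ehmt2-/- epiblasts 1 to 4. The study reported Rhox5 raised in single Ehmt2-/- epiblast cells, so this sum is not a measure of extraembryonic cells alone. In the Ezh2 cross the sum was 65.1 to 116 CPM in controls and 90.0 to 156 CPM in knockouts. Visceral endoderm markers (8 genes) summed to 377 CPM in Ezh2 control 2 and 820 CPM in Ezh2 knockout 1, against 0.188 to 29.9 CPM in all other epiblasts. Markers of blood (3 genes, at most 0.451 CPM), maternal decidua (3 genes, 2.16 to 68.3 CPM) and mesoderm or primitive streak (4 genes, 16.7 to 186 CPM) overlapped between genotypes in both crosses.

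Y-linked reads were unevenly spread. The sum of 4 Y-linked genes, chosen after their values were seen, was 54.8 to 76.5 CPM in 7 epiblasts and 0.13 to 0.567 CPM in the other 7. Y-linked reads were present in 3 of 3 Ezh2-/- epiblasts but in only 1 of 3 Ezh2 controls (control 2), and in 1 of 4 Ehmt2-/- epiblasts and 2 of 4 Ehmt2 controls. A fit with a term for Y-linked reads was therefore added for each cross and for the difference between them. Its values are given where they moved a result. Control 2 was the only Ezh2 control with such reads, so in the Ezh2 cross this fit in effect sets the 3 knockouts against control 2 alone. That control was also rich in visceral endoderm markers. In the Ezh2 cross the fit is thus not an adjustment over all controls. In the Ehmt2 cross, control 2 alone among replicates 1 to 3 had such reads, and both replicate 4 epiblasts had them. There the fit in effect leaves control 2 out. In a whole epiblast, fewer cells of a type and less RNA per cell cannot be told apart.

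The subunits differed widely in level. Per length of transcript, over the 7 controls of both crosses, Rbbp7 had the highest mean, 41.2 CPM per kb ± 6.14 (SD, n = 7), followed by Ezh2 at 31.3 ± 7.61 and Rbbp4 at 22.1 ± 2.06. Suz12 at 21.2 ± 2.44, Mtf2 at 20.5 ± 2.56 and Eed at 18.5 ± 1.91 CPM per kb lay close together. Jarid2 had 15.6 ± 1.55 and Aebp2 5.88 ± 0.793 CPM per kb. Ezh1, with 2.59 ± 0.536, and Phf19, with 0.126 ± 0.127 CPM per kb, had the lowest levels. Rbbp7 was above Ezh2, and Ezh2 above Rbbp4, in 6 of 7 controls. Neighbours from Rbbp4 to Eed were not separated: Rbbp4 was above Suz12 in 5 of 7 controls, Suz12 above Mtf2 in 4, and Mtf2 above Eed in 5. By contrast, Eed was above Jarid2, Jarid2 above Aebp2, Aebp2 above Ezh1, and Ezh1 above Phf19 in 7 of 7 controls. The top transcripts of Jarid2 and Mtf2 are annotated as a retained intron and a processed transcript. Read from its leading protein-coding transcript, Jarid2 had 21.5 CPM per kb, which would move it up to the level of Suz12, and Mtf2 had 18.0.

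**Figure D1:**
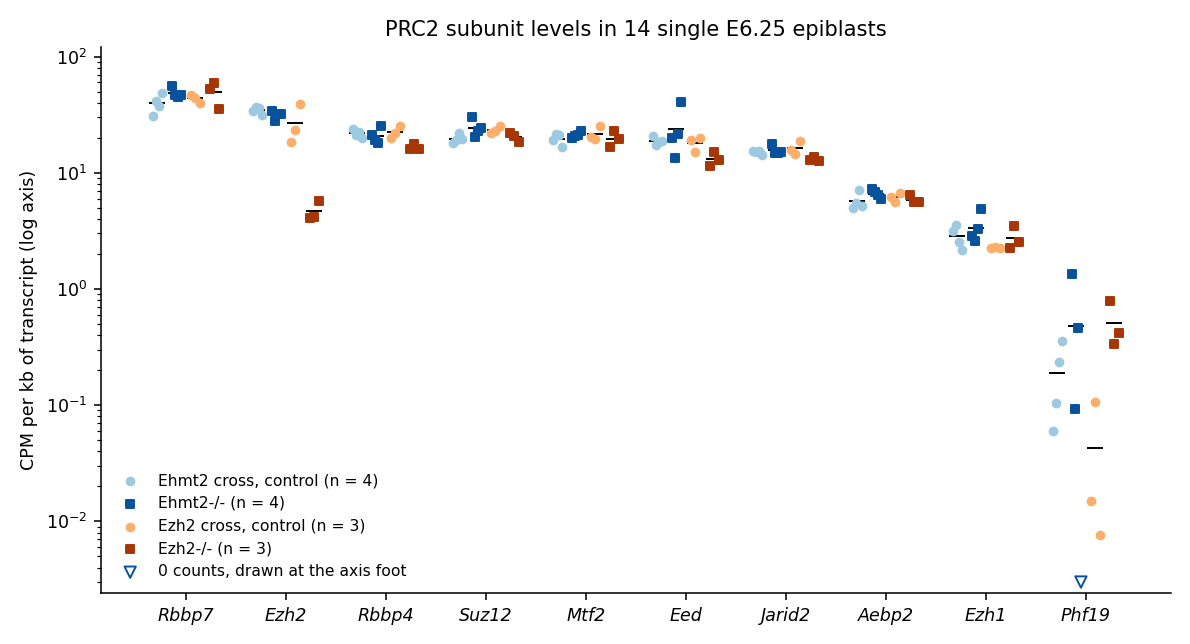
CPM per kb of transcript (log axis) of the 10 PRC2 subunit genes in each of the 14 epiblasts, ordered by the mean over the 7 controls; points are epiblasts and short lines are group means. Ezh2 in Ezh2-/- epiblasts stands far below its 11 other values, and Phf19 is the lowest and most variable gene, with 0 counts in Ehmt2 knockout 4.

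To address whether loss of either methyltransferase was accompanied by a change in PRC2 subunit transcripts, knockout was compared with control in each cross with edgeR's quasi-likelihood test, adjusted over all transcripts tested and called at an adjusted p under 0.05. In the Ehmt2 cross, 0 of 10 subunits were called (0.67% of all 49872 transcripts tested were called), and DESeq2 also called 0 of 10 (3.12% of all transcripts). The groups overlapped for 10 of 10 subunits, where 6.17% of genes had groups that did not overlap. At an unadjusted p under 0.05 there were 2, Suz12 and Rbbp7, both with a higher mean in knockouts, against 11.8% of all transcripts. Of the 10 subunits, 8 had a positive and 2 a negative log2 fold change, with a median of 0.22, against −0.01 over all transcripts. Among the Ezh2-cross epiblasts, 1 of 10 was called, Ezh2 itself (0.0118% of 50855 transcripts were called, all 6 of them isoforms of Ezh2). There, 3 subunits had a positive and 7 a negative log2 fold change, with a median of −0.17, or −0.14 without Ezh2, against 0.01 over all transcripts. At an unadjusted p under 0.05 there were 5, namely Ezh2, Rbbp4, Eed, Jarid2 and Phf19, against 7.02% of all transcripts, and all but Phf19 had a lower mean in knockouts (2.97% of transcripts against 4.05% higher). This count was 3 to 5 when single epiblasts were left out, and 3 without control 3 or without knockout 1. The term for Y-linked reads, against control 2 alone, gave log2 fold changes of −2.32 for Ezh2 and −0.41 for Rbbp4. For Eed, Jarid2 and Phf19 it gave −0.19, −0.14 and 2.25. DESeq2 called 2 of 10, Ezh2 and Phf19, against 0.649% of all transcripts.

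**Figure D2:**
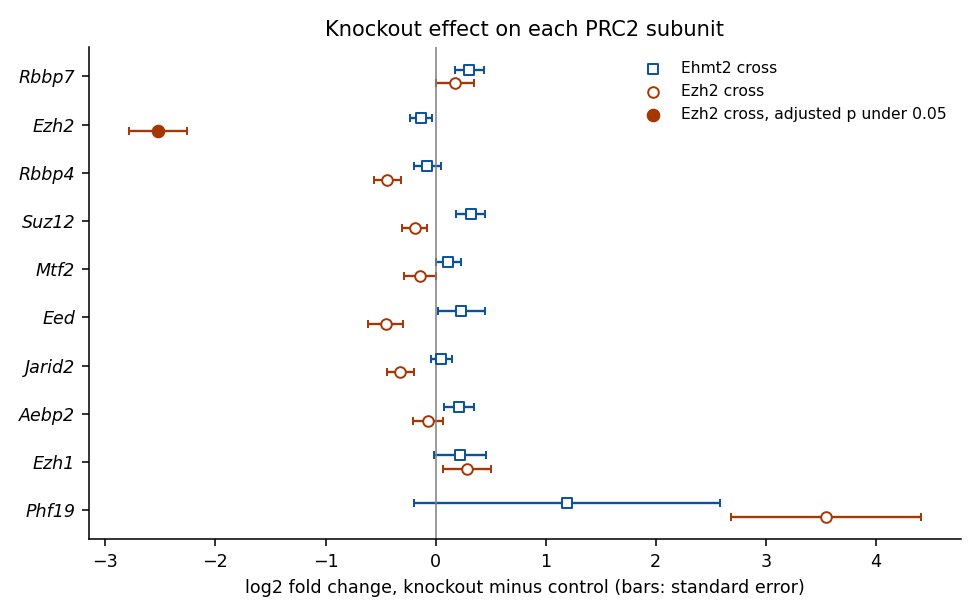
Log2 fold change of knockout over control for each PRC2 subunit in the Ehmt2 cross (squares) and the Ezh2 cross (circles), with bars for the standard error; filled symbols have an adjusted p under 0.05. Ezh2 in its own cross, at −2.52, is the only filled symbol, and Phf19 has the widest bars.

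Next, the targeted genes were examined. Ehmt2, which encodes G9a, had 10.5, 11.2, 15.8 and 34.1 CPM in the Ehmt2 controls and 4.83, 4.54, 3.29 and 9.79 CPM in the Ehmt2-/- epiblasts. Every knockout was below every control, with a log2 fold change of −1.63 (SE 0.21, adjusted p = 0.00454). Ehmt2 in the Ezh2 cross had 16.3 to 18.2 CPM in controls and 14.5 to 22.1 CPM in knockouts, with a log2 fold change of 0.09 (adjusted p = 0.954).

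Ezh2 (ENSMUST00000081721, chromosome 6, 47530139 to 47595030, minus strand, GRCm38) had 51.6, 64.9 and 108 CPM in the Ezh2 controls and 11.4, 11.6 and 16 CPM in the Ezh2-/- epiblasts. The groups did not overlap, and the controls spread by more than the knockouts. Heterozygous controls cannot be told apart here, so this control mean, and those of the isoforms below, may take in both genotypes. The knockout mean was 17.3% of the control mean, with a log2 fold change of −2.52 (SE 0.27, adjusted p = 0.016), and a two-sided exact permutation test gave p = 0.1, the smallest that 3 against 3 allow. This call was lost when any one knockout was left out (adjusted p = 0.0817, 0.343 and 0.18 without knockouts 1, 2 and 3). The log2 fold change in these fits was −2.44, −2.45 and −2.71. Over all fits without a single epiblast, controls included, it stayed between −2.74 and −2.16. With the term for Y-linked reads, that is against control 2 alone, the log2 fold change was −2.32. The control with Y-linked reads, control 2, had 64.9 CPM, above the 11.4 to 16 CPM of the knockouts, all of which had such reads. Without the visceral endoderm-rich control 2 and knockout 1 the log2 fold change was −2.53 (adjusted p = 0.0331).

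Ezh2 in the Ehmt2 cross had 94.2, 103, 101 and 87.1 CPM across the controls and 94.0, 78.3, 89.8 and 88.5 CPM across the knockouts. The groups overlapped, with a log2 fold change of −0.13 (SE 0.10, adjusted p = 0.667). The difference between the knockout effects in the 2 crosses was tested as an interaction over all 14 epiblasts. Ezh2 was the only 1 of the 10 subunits called, with a difference of −2.39 (SE 0.28, adjusted p = 0.00157), where 0.0579% of 55248 transcripts were called. DESeq2 also called 1 of 10, with 0.621% of transcripts called. At an unadjusted p under 0.05, 4 subunits differed (Ezh2, Suz12, Jarid2 and Eed), all with a lower value in the Ezh2 cross, against 8.33% of transcripts in either direction and 3.81% in this one.

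The reads left in Ezh2-/- epiblasts were not spread evenly along the gene. Of 12 listed Ezh2 isoforms, 12 had a lower mean in Ezh2-/- epiblasts and groups that did not overlap, against 6.68% of all transcripts, and 6 were called by edgeR and 11 by DESeq2. Isoforms share reads, so these are not separate events. With Ehmt2 deleted, 0 of the 12 were called, and the knockout means were 85.4% to 96.0% of the control means, with the lowest adjusted p at 0.665. Exons are numbered here on ENSMUST00000081721, which has 20. Its exon 4 lies in the 5′ isoforms, and exons 16 and 17 in the 3′ ones. These exons are printed from GRCm38 as the RNA reads, so that both ends can be located, with the pair of designed RT-qPCR primers of the study for this gene. Capitals in exons 16 and 17 mark the bases matched by the primers, and capitals in the reverse primer mark the part that pairs with exon 17.
Ezh2 exon 4: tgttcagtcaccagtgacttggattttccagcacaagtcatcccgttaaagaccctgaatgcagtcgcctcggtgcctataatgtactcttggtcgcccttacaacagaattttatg
Ezh2 exon 16: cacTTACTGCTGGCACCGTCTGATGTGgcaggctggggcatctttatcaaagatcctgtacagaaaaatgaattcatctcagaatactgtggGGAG
Ezh2 exon 17: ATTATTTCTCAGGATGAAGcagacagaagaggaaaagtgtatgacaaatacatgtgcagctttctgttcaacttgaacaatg
RT_EZH2 F: ttactgctggcaccgtctgatgtg
RT_EZH2 R: CTTCATCCTGAGAAATAATctcc
On chromosome 6, exon 4 runs from 47558178 to 47558294, exon 16 from 47533742 to 47533837 and exon 17 from 47532902 to 47532983. The primers bound a product of 112 nt, with the forward primer inside exon 16 and the reverse primer across the junction of exons 16 and 17, so the assay reads the 3′ part of the transcript.

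The isoform with the largest remainder was ENSMUST00000170327, a processed transcript over exons 2 to 5. It had 455, 556 and 540 counts in controls and 224, 208 and 275 counts in knockouts, and the knockout mean in CPM was 45% of the control mean (log2 fold change −1.15, SE 0.21, adjusted p = 0.231). The smallest remainder was in ENSMUST00000169889, an isoform over exons 6 to 10 that is annotated for nonsense-mediated decay. It had 625, 825 and 1607 counts in controls and 19, 58 and 46 counts in knockouts, and the knockout mean was 3.87% of the control mean (log2 fold change −4.67, SE 0.44, adjusted p = 0.016). For ENSMUST00000171614, which covers exons 16 to 18 and retains an intron, counts were 145, 128 and 358 in controls and 26, 26 and 122 in knockouts, and the remainder was 26.3% (log2 fold change −1.91, adjusted p = 0.567). The full-length coding isoforms had remainders of 15.1% to 18.1%. Thus, among the isoforms, the share of reads left was largest in this 5′ one and smallest in this central one. Knockout 3 held most of the 3′ reads. The 5′ and 3′ isoforms (834 and 1522 nt) are longer than the exons they overlap, so their reads need not all come from these exons. The coding isoform ENSMUST00000133043, over exons 2 to 7, had a remainder of 23.6%.

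**Figure D3:**
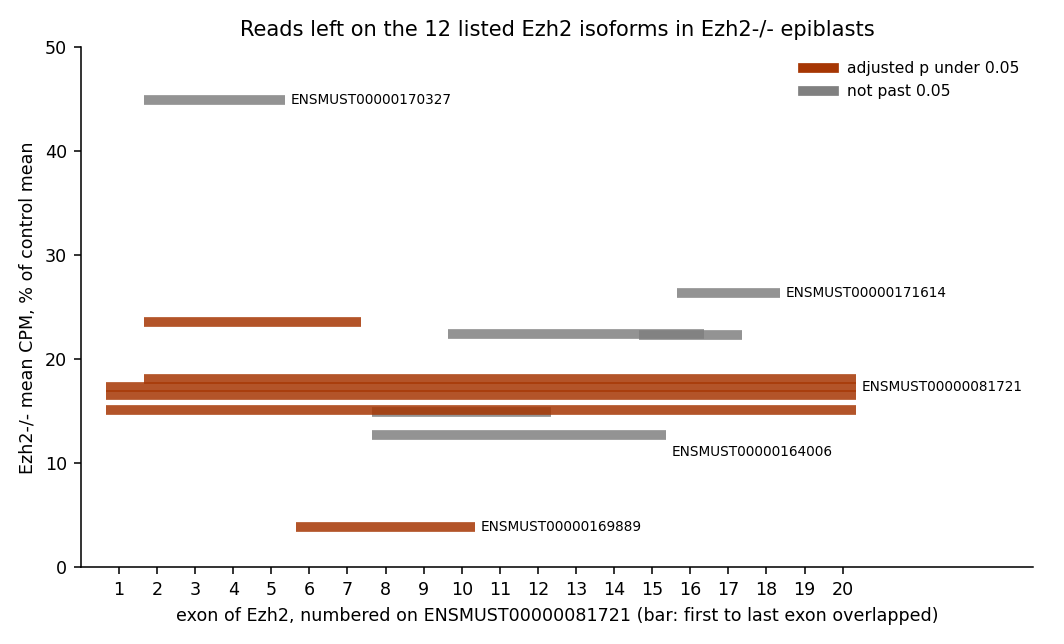
Mean CPM in Ezh2-/- epiblasts as a percentage of the control mean for the 12 listed Ezh2 isoforms, drawn from the first to the last exon each overlaps; coloured bars have an adjusted p under 0.05. The isoform over exons 2 to 5 sits at 45%, that over exons 6 to 10 at 3.87% and that over exons 16 to 18 at 26.3%. Each of them also holds bases outside the numbered exons.

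To compare regions within a library, counts of 3 isoforms with no exonic base in common were set against each other: ENSMUST00000170327 (5′), ENSMUST00000164006 (central, within exons 8 to 15) and ENSMUST00000171614 (3′). This choice was made after the values were seen. The 5′ to central ratio was 17.2, 3.65 and 5.39 in Ezh2-/- epiblasts 1 to 3, against 2.26, 2.37 and 1.14 in their controls and 0.967 to 2.37 in all 11 other epiblasts. The groups of the Ezh2 cross did not overlap, with an exact permutation p of 0.1, the smallest possible, whereas in the Ehmt2 cross p was 0.83. The 3′ to central ratio was 2.00, 0.456 and 2.39 in Ezh2-/- epiblasts and 0.721, 0.545 and 0.757 in their controls, so knockout 2 lay below the controls and the others above (exact permutation p = 0.4). The central counts of the knockouts, 13, 57 and 51, limit the precision of these ratios. The Ezh2 transcript overlaps Gm26625, an RNA annotated on the other strand, by 92 nt, and its reads could not be told apart from those of Ezh2 without strand. No transcript of Gm26625 is listed in the 14 files.

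Ezh1, the alternative catalytic subunit (ENSMUST00000107284, chromosome 11, 101191115 to 101226463), was scarce. In the Ezh2 cross it had 9.38, 9.68 and 9.44 CPM in controls and 9.54, 14.6 and 10.6 CPM in Ezh2-/- epiblasts, with a log2 fold change of 0.28 (SE 0.22, adjusted p = 0.849). The groups overlapped, since knockout 1 lay within the range of the controls. The Ehmt2 cross had 13.2, 14.9, 10.7 and 9.06 CPM in controls and 11.9, 10.8, 13.7 and 20.4 CPM in knockouts, with a log2 fold change of 0.22 (SE 0.24, adjusted p = 0.776). Here the sign depended on the replicate 4 pair: it was −0.10 without knockout 4, which had the highest value of all 14, and also −0.10 without control 4.

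The balance of the catalytic subunits was expressed as the ratio of Ezh1 to Ezh2 in CPM per kb, which does not depend on library scaling. In Ezh2-/- epiblasts the ratio was 0.554, 0.831 and 0.438, against 0.12, 0.0987 and 0.0577 in their controls. The ratio was 6.65-fold higher in knockouts, a difference of log2 means of 2.73. Since its denominator is the deleted gene, the direction was set by the design, and the value is a description: Ezh2 differed by −2.52 and Ezh1 by 0.28. Ezh1 accounted for 30.5% to 45.4% of the summed Ezh1 and Ezh2 level per kb in Ezh2-/- epiblasts and for 5.45% to 10.7% in their controls. These values still take in the Ezh2 reads left in the knockouts. Across the Ehmt2 cross, the ratio was 0.0926, 0.0961, 0.0702 and 0.0689 in controls and 0.0839, 0.0918, 0.101 and 0.152 in knockouts. The groups overlapped, with a difference of log2 means of 0.37 (exact permutation p = 0.2). The smallest p that 4 against 4 allow is 0.0286.

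**Figure D4:**
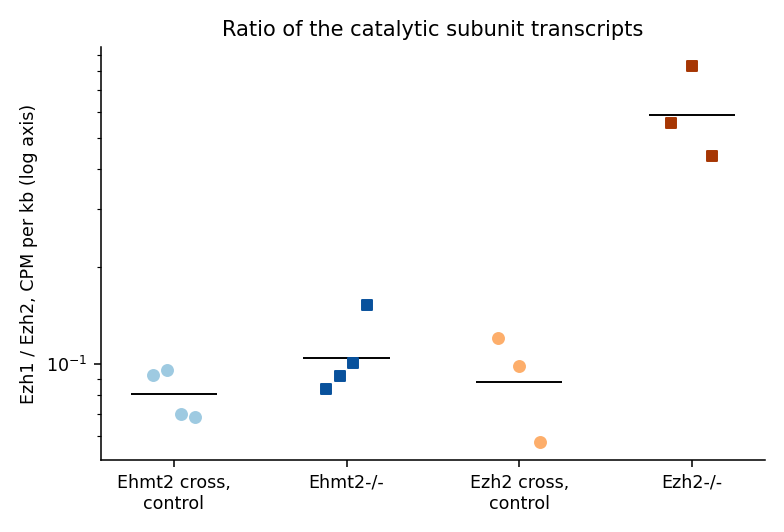
Ratio of Ezh1 to Ezh2 in CPM per kb (log axis) in each of the 14 epiblasts by group; lines are geometric means. The 3 Ezh2-/- epiblasts lie between 0.438 and 0.831, above the 0.0577 to 0.152 of all others.

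EED, which binds H3K27me3 and activates the enzyme, and SUZ12, the scaffold of the complex, are core subunits. Eed (ENSMUST00000107234, chromosome 7, 89954654 to 89980983) had 39.7, 30.9 and 40.9 CPM in Ezh2 controls and 23.7, 31.2 and 26.4 CPM in Ezh2-/- epiblasts. The groups overlapped only through control 2 and knockout 2, with a log2 fold change of −0.45 (SE 0.16, unadjusted p = 0.0177 and adjusted p = 0.601 by edgeR). With the term for Y-linked reads, that is against control 2 alone, it was −0.19. For the Ehmt2 cross, Eed had 43.2, 35.7, 38.1 and 38.7 CPM in controls and 41.0, 27.4, 44.3 and 83.3 CPM in knockouts. Knockout 4 had the highest value of all 14 epiblasts. The log2 fold change was 0.23 (SE 0.21, adjusted p = 0.729) with replicate 4 and −0.06 without both replicate 4 epiblasts. Of the 2067 nt of this transcript, 261 nt overlap exons of E230029C05Rik on the other strand.

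Suz12 (ENSMUST00000017692, chromosome 11, 79993106 to 80034123) had 78.8, 84.2, 96.0 and 84.7 CPM in Ehmt2 controls and 132, 88.7, 101 and 107 CPM in Ehmt2-/- epiblasts. Of the 4 knockouts, 3 lay above every control. The log2 fold change was 0.32 (SE 0.13, unadjusted p = 0.0301 and adjusted p = 0.363 by edgeR), and the exact permutation p was 0.0571. The highest value was in knockout 1, which also had the most extraembryonic ectoderm marker reads, and without it the log2 fold change was 0.19. Of the marker sum of 528 CPM in this epiblast, Rhox5 made up 206 CPM and Elf5 60.9 CPM. Whether extraembryonic cells contributed was not tested. Suz12 in the Ezh2 cross had 95.9, 99.8 and 110 CPM in controls and 96.9, 90.0 and 80.3 CPM in knockouts, with a log2 fold change of −0.19 (SE 0.12, adjusted p = 0.803). The difference between the crosses was −0.51 (SE 0.18, unadjusted p = 0.0132 and adjusted p = 0.465 by edgeR).

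RBBP4 and RBBP7 are closely related histone-binding chaperones that also serve in other chromatin complexes. Rbbp4 (ENSMUST00000102598, chromosome 4, 129307100 to 129335370) had 87.6, 97.6 and 112 CPM in Ezh2 controls and 71.0, 77.7 and 70.8 CPM in Ezh2-/- epiblasts. The groups did not overlap, as was so for 4 of 10 subunits (Ezh2, Rbbp4, Jarid2 and Phf19) and for 14.2% of genes (7.65% higher and 6.54% lower in knockouts). The log2 fold change was −0.44 (SE 0.12, unadjusted p = 0.00507 and adjusted p = 0.525 by edgeR), and it was −0.41 with the term for Y-linked reads. Of the 4407 nt of this transcript, 1578 nt overlap exons of Gm26722 and Sync on the other strand. Rbbp4 in the Ehmt2 cross had 105, 93.2, 99.8 and 87.7 CPM in controls and 92.3, 83.6, 80.2 and 112 CPM in knockouts. These overlapped, and the log2 fold change was −0.08 (SE 0.12, adjusted p = 0.863).

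Rbbp7, the X-linked member (ENSMUST00000033720, chromosome X, 162760402 to 162779092), had 68.8, 92.7, 83.6 and 109 CPM in Ehmt2 controls and 126, 105, 99.9 and 104 CPM in Ehmt2-/- epiblasts. Its log2 fold change was 0.31 (SE 0.14, unadjusted p = 0.042 and adjusted p = 0.404 by edgeR). The highest control, control 4, lay above 3 of the 4 knockouts. With the term for Y-linked reads the value was 0.36 (adjusted p = 0.485). Rbbp7 in the Ezh2 cross had 105, 98.9 and 89.4 CPM in controls and 118, 133 and 79.6 CPM in knockouts, with a log2 fold change of 0.17 (SE 0.17, adjusted p = 0.891). Knockouts 2 and 3 were the extremes, and the value was 0.014 without knockout 2 and 0.36 without knockout 3.

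**Figure D5:**
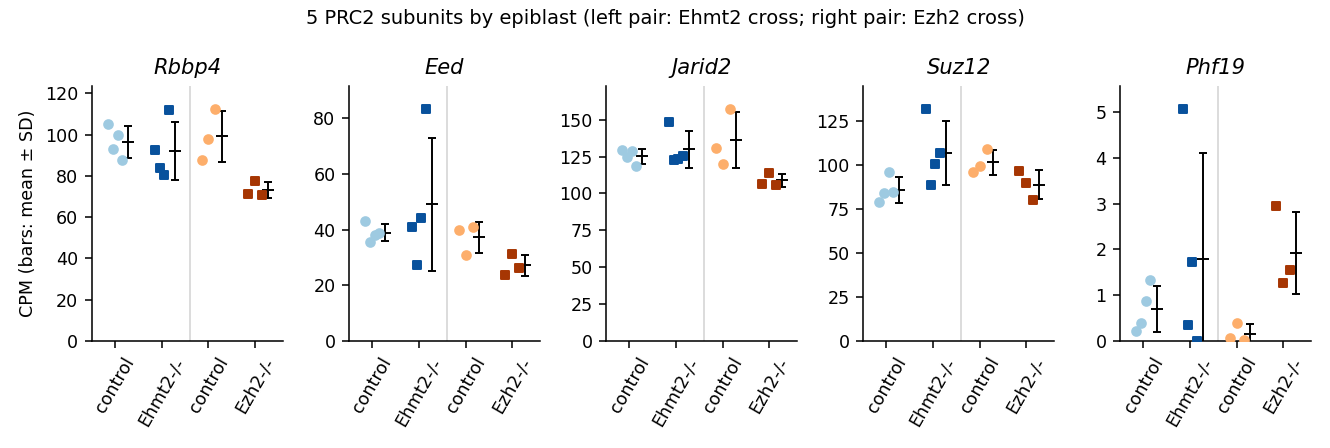
CPM of Rbbp4, Eed, Jarid2, Suz12 and Phf19 in each epiblast, in the Ehmt2 cross (left pair of each panel) and the Ezh2 cross (right pair), with bars for the mean ± SD; lower bars of Phf19 are cut at 0. In the Ezh2 cross Rbbp4, Jarid2 and Phf19 do not overlap between genotypes, and in the Ehmt2 cross all 5 do.

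Among the accessory subunits, JARID2 and AEBP2 define one form of PRC2. Jarid2 (ENSMUST00000174683, chromosome 13, 44731370 to 44921640) had 131, 120 and 157 CPM in Ezh2 controls and 107, 114 and 106 CPM in Ezh2-/- epiblasts. Every knockout was below every control, with a log2 fold change of −0.32 (SE 0.12, unadjusted p = 0.025 and adjusted p = 0.627 by edgeR). Its leading protein-coding transcript gave −0.33, but with the term for Y-linked reads the value was −0.14. Jarid2 in the Ehmt2 cross had 129, 125, 129 and 118 CPM in controls and 148, 122, 123 and 126 CPM in knockouts, with a log2 fold change of 0.05 (SE 0.10, adjusted p = 0.883). Knockout 1 stood apart from the others, and without it the value was −0.01.

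Aebp2 (ENSMUST00000032359, chromosome 6, 140622663 to 140655481) had 36.4, 33.2 and 39.8 CPM in Ezh2 controls and 37.8, 33.1 and 33.3 CPM in Ezh2-/- epiblasts, with a log2 fold change of −0.07 (SE 0.13, adjusted p = 0.954). Its Ehmt2-cross values were 29.6, 32.4, 42.1 and 30.7 CPM in controls and 42.9, 40.6, 38.0 and 35.1 CPM in knockouts. Here 1 control, control 3, reached the range of the knockouts, and the log2 fold change was 0.22 (SE 0.14, adjusted p = 0.58), or 0.33 without control 3 (adjusted p = 0.44).

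MTF2 and PHF19 are Polycomb-like proteins that bind methylated histone tails and CpG-rich DNA. Mtf2 (ENSMUST00000131264, chromosome 5, 108065716 to 108108269) had 76.4, 73.2 and 93.8 CPM in Ezh2 controls and 62.1, 85 and 73.3 CPM in Ezh2-/- epiblasts, with a log2 fold change of −0.14 (SE 0.15, adjusted p = 0.897). Its Ehmt2-cross values were 71.9, 80.0, 78.4 and 62.3 CPM in controls and 74.3, 77.9, 78.5 and 85.5 CPM in knockouts, with a log2 fold change of 0.12 (SE 0.11, adjusted p = 0.747). Both pairs of groups overlapped. In this transcript 395 nt overlap exons of Tmed5 on the other strand.

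Phf19 (ENSMUST00000028232, chromosome 2, 34893757 to 34913976) was scarce in control epiblasts and had the largest fold change among the subunits. It had 1 to 14 counts in Ezh2 controls and 9 to 71 counts in Ehmt2 controls. In the Ezh2 cross it had 2, 14 and 1 counts in controls and 95, 47 and 59 counts in Ezh2-/- epiblasts, or 0.056, 0.4 and 0.0283 CPM against 2.95, 1.26 and 1.55 CPM. The groups did not overlap, and the knockout mean was 11.9-fold the control mean. Levels did overlap with controls of the other cross, since Ehmt2 control 4 had 1.33 CPM. By edgeR the log2 fold change was 3.55 (SE 0.87) with an adjusted p of 0.424, and by DESeq2 it was 3.58 (SE 0.83) with an adjusted p of 0.008. It was 2.25 with the term for Y-linked reads and 4.95 without the visceral endoderm-rich epiblasts. The sum of extraembryonic ectoderm markers in the same epiblasts was 74.8, 116 and 65.1 CPM in controls and 135, 156 and 90.0 CPM in knockouts. Of this, Eomes made up 71.0, 95.1 and 62.2 CPM in controls and 74.9, 134 and 66.2 CPM in knockouts. Rhox5 made up 0.98, 18.8 and 0.709 CPM in controls and 40.8, 13.4 and 17.7 CPM in knockouts. The part of extraembryonic cells in the result was not tested.

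Phf19 in the Ehmt2 cross had 9, 18, 33 and 71 counts in controls and 177, 12, 66 and 0 counts in knockouts. The 0 in knockout 4 allows up to 0.0501 CPM. These counts correspond to 0.225, 0.386, 0.882 and 1.33 CPM in controls and 5.06, 0.347 and 1.72 CPM in knockouts 1 to 3, beside extraembryonic ectoderm sums of 528, 150, 179 and 62.4 CPM in knockouts 1 to 4. In controls 1 to 4 the same sums were 25.3, 132, 62.2 and 42.1 CPM. Of the knockout sums, Rhox5 made up 206, 61.1, 71.5 and 40.3 CPM and Eomes 119, 49.7, 62.9 and 16.6 CPM. In the controls Rhox5 had 3.78, 5.13, 1.58 and 0.075 CPM and Eomes 18.5, 121, 56.5 and 40.7 CPM. The study reported Rhox5 raised in single Ehmt2-/- epiblast cells. Phf19 had the same order as the sums in the knockouts but not in the controls, and a link was not tested. The knockouts spanned the whole range of the controls, with a log2 fold change of 1.19 (SE 1.39, adjusted p = 0.795), and it was −0.13 without knockout 1 and 2.25 without knockout 4. The difference between the crosses was 2.35 (SE 1.80, adjusted p = 0.779).

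The genes whose levels went most closely with Ezh2 were sought over the 14 epiblasts, on log2(CPM + 0.5) centred on the mean of each comparison set, among 11711 other genes with a mean of at least 1 CPM. The 5 closest were Exosc3 (Pearson r = 0.894), Bcas2 (0.888), Mgme1 (0.874), Glmn (0.846) and Cdh10 (0.841). Among the subunits, Rbbp4 was the closest at rank 14 (r = 0.805) and Jarid2 followed at rank 20 (r = 0.787), whereas Ezh1 (r = −0.27), Rbbp7 (r = −0.33) and Phf19 (r = −0.60) had negative values. These values are a description, since all points share libraries and 3 of them are the Ezh2-/- epiblasts. Over the other 11 epiblasts r was 0.339 for Exosc3 and 0.207 for Bcas2, and 0.651 for Rbbp4 and 0.634 for Jarid2. For Ezh1, Rbbp7 and Phf19 it was 0.0852, −0.35 and −0.041.

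Other Polycomb genes were described by lists. Of the 4 tested PRC2 accessory or antagonist genes outside the 10, 0 were called in either cross, by edgeR or DESeq2. Over all transcripts edgeR called 0.67% in the Ehmt2 and 0.0118% in the Ezh2 cross, and DESeq2 3.12% and 0.649%. At an unadjusted p under 0.05 by edgeR there was 1 in the Ehmt2 cross and 0 in the Ezh2 cross, against 11.8% and 7.02% of all transcripts. Their median log2 fold changes were 0.31 and 0.10, against −0.01 and 0.01 over all transcripts. Epop, an elongin-binding partner of PRC2, had the largest value in the Ehmt2 cross, 0.59 (SE 0.27, adjusted p = 0.421), with groups that did not overlap, followed by Phf1, also a Polycomb-like gene, at 0.36. With Ezh2 deleted, Phf1 had 0.54 (SE 0.52, adjusted p = 0.888) and Lcor, whose product can join PRC2, −0.32 (SE 0.29, adjusted p = 0.879).

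The H3K27 demethylases Kdm6a and Kdm6b, which remove the mark, and the Kdm6a paralogue Uty were likewise not called by edgeR or DESeq2 (0 of 2 tested in the Ehmt2 and 0 of 3 in the Ezh2 cross). At an unadjusted p under 0.05 there were 0 and 2, against 11.8% and 7.02% of all transcripts, and the medians were −0.04 and −0.40. For Kdm6a and Kdm6b the Ehmt2 cross gave log2 fold changes of 0.18 (SE 0.16, adjusted p = 0.712) and −0.26 (SE 0.17, adjusted p = 0.587). Kdm6a in the Ezh2 cross had 78.8, 52.1 and 84.4 CPM in controls and 49.8, 49.3 and 47.8 CPM in knockouts (log2 fold change −0.55, SE 0.17, adjusted p = 0.565). Kdm6a is X-linked, and control 2, the control with Y-linked reads, was within 5 CPM of the knockouts. Uty, on the Y chromosome, had between 3 and 439 counts in controls and between 380 and 507 in knockouts (log2 fold change 1.57, SE 1.18, adjusted p = 0.846).

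Polycomb repressive complex 1 (PRC1) ubiquitinates histone H2A and in part binds H3K27me3. Of 19 PRC1 subunit genes, 0 were called by edgeR in either cross, whereas DESeq2 called 2 in the Ehmt2 and 1 in the Ezh2 cross (3.12% and 0.649% of all transcripts). The medians were 0.19 in the Ehmt2 and 0.10 in the Ezh2 cross. At an unadjusted p under 0.05 there were 7 higher and 3 lower in the Ehmt2 cross, against 6.15% and 5.62% of all transcripts, and 3 higher and 1 lower in the Ezh2 cross, against 4.05% and 2.97%. The largest value in the Ezh2 cross was that of Bmi1, a PRC1 RING-finger subunit, with between 112 and 232 counts in controls and between 422 and 519 in knockouts. Its log2 fold change was 1.62 (SE 0.31) with an adjusted p of 0.314 by edgeR and 0.000147 by DESeq2. Ring1, an E3 ligase of PRC1, followed at 0.80 (SE 0.25, adjusted p = 0.566). The scarce chromobox gene Cbx8, with between 3 and 17 counts in controls, had a value of 1.29 (SE 0.80, adjusted p = 0.572) in the Ehmt2 cross. Bmi1 and Yaf2, named after their values were seen, were called there by DESeq2 (adjusted p = 0.00335 and 0.0386) but not by edgeR (0.0877 and 0.196).

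Of 20 well-known PRC2 target genes, 8 had enough counts to be tested in the Ehmt2 cross and 9 in the Ezh2 cross. None was called by edgeR (0 in each cross), and the median log2 fold changes were −0.26 and −0.01. At an unadjusted p under 0.05 there were 1 in the Ezh2 and 0 in the Ehmt2 cross (7.02% and 11.8% of all transcripts), and DESeq2 called the same numbers (0.649% and 3.12% of all transcripts). The gene was Hoxd13, a posterior homeobox gene, with between 5 and 25 counts in controls and between 67 and 129 in Ezh2-/- epiblasts, and a log2 fold change of 2.57 (SE 0.59) with an adjusted p of 0.404 by edgeR and 0.00771 by DESeq2. Hoxa11 had −1.71 (SE 1.32, adjusted p = 0.852) in the same cross. Of the targets in the Ehmt2 cross, the endoderm regulators Gata6 and Gata4 had the largest values, −1.18 (SE 1.06, adjusted p = 0.727) and −1.15 (SE 0.71, adjusted p = 0.571). Gata6 had between 0 and 84 counts in controls and between 0 and 23 in knockouts.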

How the data were processed

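Epiblasts were dissected at E6.25 and RNA with an integrity score above 8 was amplified with the Ovation V2 kit. By the authors, reads were trimmed to 40 nt, aligned to GRCm38 with Tophat2 and counted per Ensembl release 74 transcript with HTSeq. The deposited values are raw counts, 1 per transcript and sample. A read can count for several isoforms. A row of unaligned reads in both Ehmt2 replicate 4 tables (12.6% and 13.3% of their totals) was left out. Of 72515 transcript identifiers, 70021 (96.6%) matched GENCODE vM21, which gave names and GRCm38 positions. Sequences were read from the GRCm38 RefSeq assembly, and primers from the study's oligo list.

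Counts were filtered with filterByExpr and scaled with TMM, and each cross was tested by itself with edgeR 4.0.16 (glmQLFit, glmQLFTest; R 4.3.3) with Benjamini-Hochberg adjustment over all transcripts tested. The Ehmt2 cross had a term separating replicate 4 from replicates 1 to 3, because a supplementary table of the study heads its comparison of knockout 4 with control 4 alone. The methods text names no such sets. Standard errors are the log2 fold change over the square root of F. CPM uses the TMM scale of all 14 epiblasts, and CPM per kb divides by transcript length. Alternatives included DESeq2 1.42.0, with its independent and Cook's filters off. Counts were simulated for 49455 transcripts of the Ezh2 cross and 48781 of the Ehmt2 cross. Changed transcripts were drawn only from those with a mean count of at least 100, a level that Phf19 (mean 43.1) did not reach. Of 100 transcripts changed by 2.5 on the log2 scale, the fit recovered 91% in the Ezh2 cross and 96% in the Ehmt2 cross. For a change of 1 it recovered 37% and 43%. There were 16 false calls in each cross, a larger share of all calls than the threshold of 0.05 aims at. Both sizes of change were planted together, and more true changes make an adjusted p under 0.05 easier to reach. The measured Ezh2 cross had only 6 calls, so the recovered shares can overstate what could be found there. In it, Ezh2 isoforms ENSMUST00000167278 and ENSMUST00000164006 had log2 fold changes of −2.73 and −2.96 but edgeR adjusted p of 0.161 and 0.174.

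The members, gene lists and markers were chosen with earlier results of these data known. All 10 members were named. Other listed genes were named where called, or otherwise as the 2 with the largest change per list and cross. The study used 4 and 3 litters but the sources used here do not say which epiblasts shared one, so p-values measure the spread between epiblasts. Ezhip, on one list, had no listed transcript. ChIP-seq and bisulfite samples were not analysed here. Of the genes and sequences that these rules select, 1 gene and 1 sequence are not reported here.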

Additional observations from a re-analysis of the deposited data

Results flagged for a closer look

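Ezh2 was flagged because its knockout effect differed between the crosses: the interaction in edgeR was −2.39 on the log2 scale (adjusted p = 0.00157). All 3 Ezh2-/- epiblasts were below every control of their cross, and 1 of 4 Ehmt2-/- epiblasts was below every control of theirs. In the Ehmt2-/- group, Jarid2 was flagged for 1 epiblast far from the others, knockout 1 with 148 CPM, against 122 to 126 CPM in the other 3. Chance flags about 1 in 20 such groups, and 22 groups of 4 were examined.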

How the results depend on the processing

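Whether a member was called in the Ezh2 cross depended on the processing. The main count was 1 of 10. DESeq2 called 2, whereas restricting the test to 1 transcript per gene left 0. Leaving out single epiblasts gave 0 to 1, with 0 without any one knockout. The term for Y-linked reads leaves control 2 as the only control compared in this cross, so its calls are not counted. For the Ezh2 isoforms, 6 of 12 in the main fit, DESeq2 called 11, and leaving out single epiblasts gave 0 to 6. The cause was not tested, but each of these fits kept a negative log2 fold change for Ezh2. Counts in the Ehmt2 cross (0) and for the difference between the crosses (1) were the same in every alternative run. In the Ehmt2 cross the Ezh1 to Ezh2 ratio kept its direction in every alternative. In the Ezh2 cross its direction was set by the design, so no alternative could test it.

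Signs turned for some members. Without both replicate 4 epiblasts, Ezh1 was −0.095 and Eed −0.056 in the Ehmt2 cross. With the term for Y-linked reads, chosen after seeing the data like the removal of replicate 4 and of the visceral endoderm-rich epiblasts, Mtf2 was 0.0062 and Aebp2 0.068 in the Ezh2 cross, and the Ezh1 difference between the crosses was −0.22. Leaving out single epiblasts gave ranges of −0.10 to 0.35 for Ezh1, −0.058 to 0.41 for Eed, −0.014 to 0.086 for Jarid2, −0.0010 to 0.16 for Mtf2 and −0.13 to 2.25 for Phf19 in the Ehmt2 cross. For the difference between the crosses they were −0.13 to 0.38 for Ezh1 and −0.29 to 0.050 for Rbbp7.

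Replicate numbers were not taken to pair the samples, since not every same-numbered pair reached the correlation required. The deviations of same-numbered epiblasts correlated with r of 0.0536 to 0.372 in the Ehmt2 cross, with 3 of 4 over 0.1, and of −0.11 to 0.156 in the Ezh2 cross, with 1 of 3. In the Ehmt2 cross 3 of 4 controls, and in the Ezh2 cross 1 of 3, correlated best with the knockout of their own number, a hint from the data and not from the design. With the replicate block, Ezh2 was −2.47 in the Ezh2 cross (adjusted p = 0.000954). There 0 members were called in the Ehmt2 cross, and 1 member and 7 isoforms in the Ezh2 cross. The ratio of Ezh1 to Ezh2 had exact sign-flip p-values of 0.5 in the Ehmt2 and 0.25 in the Ezh2 cross. The latter is the smallest that 3 pairs allow, so this test could not go lower. In the Ezh2 cross over all transcripts, edgeR called 0 higher and 6 lower and DESeq2 247 and 83. In the Ehmt2 cross edgeR called 253 and 81, DESeq2 919 and 638, the replicate block left 105 and 12, and the fit without the term for replicate 4 left 51 and 1.

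Depth limits Phf19 most, at 0 to 177 counts. Isoform lengths and 3′ bias of amplification were not modelled in CPM per kb.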
